A study of Mus musculus with 12 samples.

Results

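The 10 genes described here encode the main cytosolic heat shock chaperones, and they were followed in thyroids of mice with and without thyroid dysplasia. They were taken by gene name from the deposited tables of 55536 genes, and all 10 were present and had enough reads to be tested. They are *Hspa1a*, *Hspa1b*, *Hspa8*, *Hspa4*, *Hspa4l*, *Hsph1*, *Hsp90aa1*, *Hsp90ab1*, *Dnajb1* and *Hspb1*. Total RNA depleted of ribosomal RNA was sequenced from 12 thyroids, 1 library per mouse. The 5 affected mice were C57BL/6NTac (B6NTac) animals from Taconic with the dysplasia phenotype, which the study traced to a LINE-1 element inserted in an intron of *Tg*, the gene of thyroglobulin. The 7 unaffected mice were 6 C57BL/6NCrl (B6NCrl) animals from Charles River and 1 knockout animal on the B6NTac background, replicate 14, whose targeted gene is not named in the sources used here. Age and sex are not given for single mice. Phenotype and substrain therefore go together in all mice but replicate 14, and their effects on expression cannot be told apart.

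Heat shock chaperones bind unfolded protein in the cytosol and nucleus and help it to fold or hand it on for degradation. HSP70 proteins hold exposed stretches of a chain in a cycle driven by ATP, which J-domain proteins such as DNAJB1 start and nucleotide exchange factors such as the HSP110 proteins complete. HSP90 proteins act later, on proteins that are nearly folded, and small heat shock proteins such as HSPB1 keep unfolded chains soluble without using ATP. When cytosolic protein misfolds, heat shock factor 1 binds heat shock elements in the promoters of many of these genes and raises their transcription. Thyroglobulin itself is folded in the endoplasmic reticulum (ER), which has its own chaperones under a separate control.

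Library totals were 20170500 to 23319948 estimated counts in affected mice and 11434901 (replicate 14) to 22401136 in unaffected mice. Counts of single members in single mice lay between 158 (*Hspb1*) and 18943 (*Hsp90ab1*). The thyroids held different amounts of other tissues. CPM values are read counts scaled to the depth of each library and to its TMM factor from edgeR. The summed CPM of the 9 genes of the thyroid follicular cell list was 101230 and 119790 in affected replicates 1 and 6. It was 184130 to 256670 in the other affected mice, and 210960 to 304650 in unaffected mice. The 12-gene skeletal muscle list summed to 36428 CPM in affected replicate 6, 30.0 to 1727 in the other affected mice, and 67.5 to 16082 in unaffected mice. Affected replicate 3 had the highest sums for airway epithelium (1467 CPM) and cartilage (378 CPM), and affected replicate 4 had a parathyroid sum of 29.4 CPM, against 1803 or more in every other mouse. The 7-gene adipose list, of which 1 gene was called higher, summed to 1645, 327, 197, 699 and 583 CPM in affected replicates 1, 3, 4, 5 and 6 and to 263 to 448 CPM in unaffected mice. In whole tissue, fewer cells of a type and less RNA per cell cannot be told apart.

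The heat shock element is built from the units GAA and TTC, which alternate with 2 bases between them. The letters were searched in RefSeq promoters of GRCm38.p6, from 250 bases before to 50 after each start site, of which the table holds entries for 7 of the 10 members. *Hspa8*, *Hsp90aa1* and *Hsp90ab1* have no entry. A run of 3 units, GAANNTTCNNGAA or TTCNNGAANNTTC, occurred in 198 of 32851 promoters (0.603%). Among the members it occurred in *Hsph1*, 36 bases after the first of its 2 start sites, as TTCTGGAAAGTTC. A run of 2 units, GAANNTTC or TTCNNGAA, was searched after that result was seen. It is contained in the longer run, reads the same on both strands, and occurred in 15.1% of promoters. Among the members it was in *Hspa1a*, *Hspa1b*, *Hspb1* and *Hsph1*, and not in the entries of *Hspa4*, *Hspa4l* or *Dnajb1*. The 60 bases around these runs, upstream of the start, are shown for the members whose entries hold them there. Each is written 5′ to 3′ on the gene's strand with the 2-unit runs in capitals.
Hspa1a: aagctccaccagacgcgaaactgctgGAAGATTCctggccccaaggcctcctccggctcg
Hspb1: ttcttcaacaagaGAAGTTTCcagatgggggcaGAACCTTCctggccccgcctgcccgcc
Hsph1: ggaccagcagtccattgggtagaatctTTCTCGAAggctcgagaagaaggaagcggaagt
The first lies at chr17:34972227-34972286 on the minus strand, from 130 to 71 bases before the start of *Hspa1a*. The same 60 letters stand before *Hspa1b*, at chr17:34959309-34959368. Over all 300 bases the promoters of the pair differed at 4 positions (98.7% identity). The *Hspb1* stretch lies at chr5:135887789-135887848 on the plus strand, over the same distance from its start, and holds 2 such runs. The *Hsph1* stretch is the last 60 bases before its start, at chr5:149636337-149636396 on the minus strand.

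In affected thyroids 4 of the 10 members rose past the threshold of an adjusted p of 0.05, and none fell. The 4 were *Hsp90aa1*, *Hspa1a*, *Hspa4l* and *Hspa4*. Of all 19661 genes tested, 7.63% were called higher and 6.10% lower. All 10 members had a log2 fold change above 0, which was so for 50.8% of all genes. An unadjusted p under 0.05 was found for 7 members, all of them higher, and for 29.0% of all genes in either direction. The median log2 fold change of the members was 0.51, and that of all genes tested was 0.01. No member had all 5 affected mice above all 7 unaffected mice, which was true of 3.78% of all genes. The count of called members was 1 without affected replicate 3 or 5 and 2 without unaffected replicate 14, 21, 24 or 25. It was 0 when libraries were scaled by their totals without *Tg*. Among all genes those called higher also fell, from 1500 to 1099 without affected replicate 3, 1002 without replicate 5 and 604 with those totals. In the called members except *Hspa4* the rise was carried by affected replicates 3, 4 and 5, while replicates 1 and 6 sat in or near the range of the controls.

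**Figure D1:**
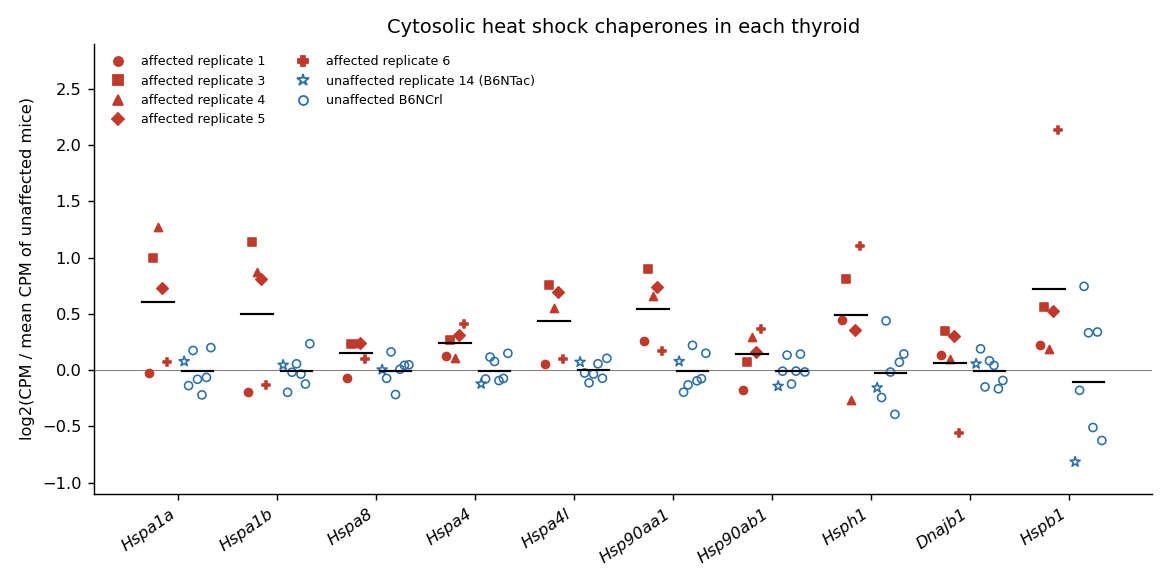
Expression of the 10 members in each mouse, as log2 of CPM over the mean CPM of unaffected mice. Each point is 1 mouse, filled red for affected and open blue for unaffected, and black lines are the means of the plotted values. Affected replicates 3, 4 and 5 lie above the controls for *Hspa1a*, *Hspa1b*, *Hspa4l* and *Hsp90aa1*, and replicate 6 stands apart for *Hspb1*.

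*Hspa1a* (ENSMUSG00000091971, chr17:34969190-34972156, minus strand, a single exon model) encodes the stress-inducible HSP70. Its level was 21.7, 43.9, 53.1, 36.5 and 23.2 CPM in affected replicates 1, 3, 4, 5 and 6. Controls had 18.9 to 25.3 CPM with a median of 21.1. Replicates 3, 4 and 5 were above every control, and replicates 1 and 6 were within the control range. The group means were 35.7 ± 13.4 CPM (SD, n = 5) and 22.0 ± 2.46 CPM (SD, n = 7). The log2 fold change was 0.70 ± 0.20 (SE, edgeR's quasi-likelihood test, adjusted p = 0.037). That call was lost on leaving out any 1 of 9 mice (affected replicates 3, 4 and 5 and unaffected replicates 14, 21, 23, 24, 25 and 26), with adjusted p between 0.052 and 0.0931.

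*Hspa1b* (ENSMUSG00000090877, chr17:34956436-34959238, minus strand) lies beside *Hspa1a* and encodes an almost identical protein. Its level was 27.1, 68.5, 57.0, 54.7 and 28.3 CPM in affected replicates 1, 3, 4, 5 and 6. Controls ranged from 27.1 to 36.6 CPM with a median of 30.7. The same 3 affected mice were above every control. The log2 fold change was 0.60 ± 0.21 (SE, adjusted p = 0.0798), short of the threshold, and without affected replicate 1 or 6 the adjusted p was 0.02 or 0.0244. Of the 75-base windows in the *Hspa1a* transcript, 52.7% also occur in *Hspa1b*, so that reads may have been divided between them. With both counted as 1 gene, the log2 fold change was 0.64 ± 0.20 (SE, adjusted p = 0.0529). With the counts of other genes that share 5% or more of their windows added as well, an alternative chosen after seeing the data, it was 0.60 ± 0.18 (SE, adjusted p = 0.0416). *Hspa1a* also shares 564 exonic bases with *Gm20481* on the other strand, and the authors' table marks it as confounded.

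*Hsp90aa1* (ENSMUSG00000021270, chr12:110690605-110702728, minus strand) is the stress-responsive of the 2 cytosolic HSP90 genes. Its level was 187, 293, 247, 261 and 177 CPM in affected replicates 1, 3, 4, 5 and 6. The controls lay between 137 and 183 CPM with a median of 149. Only replicate 6 fell within the control range, and 4 affected mice were above it. The means were 233 ± 49.7 CPM (SD, n = 5) and 157 ± 17.3 CPM (SD, n = 7), and the log2 fold change was 0.57 ± 0.13 (SE, adjusted p = 0.0109). It was the only member whose call held when each of the 12 mice was left out in turn, with log2 fold changes from 0.48 to 0.67. Of its 75-base windows, 45% also occur in the pseudogene *Gm12346*. With such genes added in the same way, its log2 fold change was 0.57 (adjusted p = 0.0104).

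*Hsp90ab1* (ENSMUSG00000023944, chr17:45567775-45573271, minus strand) encodes the constitutive HSP90. Its level was 644, 767, 891, 817 and 940 CPM in affected replicates 1, 3, 4, 5 and 6. The unaffected mice had 660 to 804 CPM with a median of 724. The groups overlapped, with affected replicate 1 below every control, and the log2 fold change of 0.16 ± 0.10 (SE, adjusted p = 0.305) did not pass the threshold. *Hsp90aa1* made up 19.9% ± 3.74 (SD, n = 5) of the FPKM of both genes in affected mice, against 15.7% ± 2.19 (SD, n = 7) among controls, with ranges that overlapped. FPKM values are read counts divided by transcript length and library depth.

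*Hspa8* (ENSMUSG00000015656, chr9:40800984-40810087, plus strand) encodes the constitutive HSP70 of the cytosol. Its level was 575, 708, 713, 710 and 646 CPM in affected replicates 1, 3, 4, 5 and 6. Controls had 518.0 to 674 CPM with a median of 605. Replicates 3, 4 and 5 were again above the controls, by a small margin. With a log2 fold change of 0.15 ± 0.08 (SE, adjusted p = 0.221) it was not called. Of its 75-base windows, 41.3% also occur in other genes, mostly pseudogenes. The authors' table marks it as confounded without naming a gene, and 3 small nucleolar RNA genes overlap its exons.

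*Hspa4*, *Hspa4l* and *Hsph1* encode the HSP110 proteins, large relatives of HSP70 that exchange its nucleotide. *Hspa4l* (ENSMUSG00000025757, chr3:40744495-40796103, plus strand) had 69.8, 113, 98.6, 109 and 72.1 CPM in affected replicates 1, 3, 4, 5 and 6, and 62.1 to 72.2 CPM with a median of 66.0 in controls. It had the pattern of *Hspa1a*, with 3 affected mice above the controls. Its log2 fold change was 0.46 ± 0.12 (SE, adjusted p = 0.0223), and without affected replicate 3 or 5 the adjusted p was 0.0611 or 0.0655.

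*Hspa4* (ENSMUSG00000020361, chr11:53259814-53300457, minus strand) had 106, 117, 105, 121 and 129 CPM in affected replicates 1, 3, 4, 5 and 6. In controls it was 89.5 to 108 CPM with a median of 92.5. Replicates 3, 5 and 6 were above the controls, so its order among affected mice was not that of *Hspa4l*. Its change of 0.25 ± 0.07 log2 units (SE, adjusted p = 0.0407) was the least of the called members. It lost the call without affected replicate 3, 5 or 6 or unaffected replicate 14, 21, 24 or 25, with adjusted p from 0.0719 to 0.0979.

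*Hsph1* (ENSMUSG00000029657, chr5:149614287-149636376, minus strand) had 25.0, 32.3, 15.3, 23.6 and 39.5 CPM in affected replicates 1, 3, 4, 5 and 6. In controls it was 14.0 to 24.9 CPM with a median of 18.2. Replicate 4, which had the highest *Hspa1a*, had the lowest *Hsph1* of the affected mice. Its log2 fold change was 0.56 ± 0.21 (SE, adjusted p = 0.0923). Without replicate 4 it was 0.73 (adjusted p = 0.0178).

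*Dnajb1* (ENSMUSG00000005483, chr8:83608193-83612653, plus strand) encodes the J-domain protein that works with inducible HSP70. Its level was 18.5, 21.4, 17.99, 20.8 and 11.5 CPM in affected replicates 1, 3, 4, 5 and 6. Controls ranged from 15.0 to 19.2 CPM with a median of 17.3. Affected mice were found above, within and, for replicate 6, below the range of the controls. The log2 fold change was 0.10 ± 0.13 (SE, adjusted p = 0.674). It was 0.23 without affected replicate 6 (adjusted p = 0.0867), 0.03 without replicate 3 and 0.04 without replicate 5. Scaled by library totals without *Tg*, which moved the median of all genes to -0.13, it was -0.02, or 0.12 above that median.

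*Hspb1* (ENSMUSG00000004951, chr5:135887919-135889563, plus strand) encodes the small heat shock protein HSP25, abundant in muscle. Its level was 27.1, 34.1, 26.3, 33.3 and 102 CPM in affected replicates 1, 3, 4, 5 and 6. The unaffected mice had 13.2 to 38.8 CPM with a median of 20.5. Replicate 6 alone was above the controls, while all 5 affected mice were above the control median. The log2 fold change of 0.94 ± 0.39 (SE, adjusted p = 0.133) was the highest of the members and did not pass the threshold. Without replicate 6 it was 0.39 (adjusted p = 0.398).

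Skeletal muscle markers moved with *Hspb1*, and in affected mice also with other members. Pearson's r with the mean log2 CPM of the muscle list was 0.91 for *Hspb1*, 0.93 for *Hspa4*, 0.75 for *Hsp90ab1* and 0.61 for *Hsph1* in affected mice. In unaffected mice it was 0.87, -0.01, 0.56 and 0.19 in that order. For the remaining members r lay between -0.70 (*Dnajb1*) and 0.22 (*Hspa8*) in affected mice. In the unaffected mice *Hspb1* was 13.2, 15.0 and 16.3 CPM in replicates 14, 26 and 24, where the muscle markers summed to 68.5, 67.5 and 825 CPM. It was highest in replicate 22, at 38.8 CPM, where they summed to 16082 CPM. In replicates 21, 23 and 25 *Hspb1* was 20.5, 29.2 and 29.3 CPM, with marker sums of 6981, 5975 and 13214 CPM. The 4 affected mice other than replicate 6 had 26.3 to 34.1 CPM of *Hspb1* with 30.0 to 1727 CPM of muscle markers. The mean log2 CPM of the muscle list was used as a covariate in an alternative chosen after seeing the data. With it the log2 fold change of *Hspb1* was 0.96 ± 0.19 (SE, edgeR's quasi-likelihood test, adjusted p = 0.00782). That covariate was chosen in view of the same mice, so the p value is not separate support. Of 11 muscle genes tested none passed the test between groups in edgeR, at an unadjusted p under 0.05, or in DESeq2. Of the transcript of *Hspb1*, 47.3% of 75-base windows also occur in the pseudogene *Hsp25-ps1*.

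**Figure D2:**
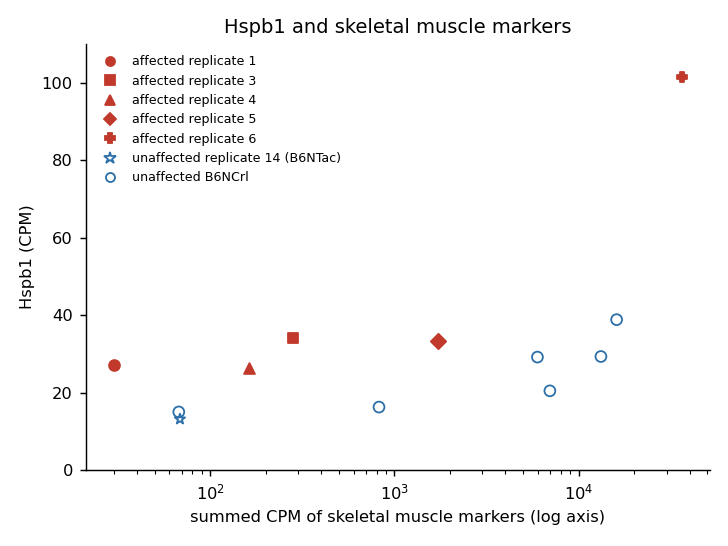
*Hspb1* in CPM against the summed CPM of skeletal muscle markers on a log axis, 1 point per mouse. Affected replicate 6 has the highest value of both (102 CPM and 36428 CPM). The other 4 affected mice have 26.3 to 34.1 CPM of *Hspb1*. The 3 unaffected mice of lowest marker sums have 13.2 to 16.3 CPM, and the other unaffected mice have 20.5 to 38.8 CPM.

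Among the affected mice the thyroid follicular cell markers moved with the other pattern. Affected replicates 1 and 6 had the lowest sums of these markers. They were the 2 lowest of the affected mice for 5 of the 10 members, namely *Hspa1a*, *Hspa1b*, *Hspa8*, *Hspa4l* and *Hsp90aa1*. These 5 were picked by their order in the same mice, so a high r in affected mice was partly built in. *Hspa4*, *Hsp90ab1*, *Hsph1*, *Dnajb1* and *Hspb1* were not so ordered. Their Pearson's r with the mean log2 CPM of the list was -0.17, 0.37, -0.56, 0.56 and -0.44 in affected mice. For the 5 picked members, in the order named, it was 0.97, 0.95, 0.93, 0.92 and 0.88 in affected mice. In unaffected mice it was 0.05, 0.74, -0.31, 0.44 and 0.80. With the ER relatives described below, r of the same 5 members in affected mice was 0.92, 0.98, 0.86, 0.98 and 0.97. With the adipose list it was -0.91, -0.77, -0.85, -0.67 and -0.64. These lists cannot be told apart in 5 mice, and their parts were not tested. With the mean log2 CPM of the follicular cell list as a covariate, also chosen after seeing the data, 5 members were called. Of all 19661 genes, 1960 were then called higher and 1418 lower, against 1500 and 1199 in the fit without it. The log2 fold changes and edgeR adjusted p values were then 0.67 and 7.96e-05 for *Hsp90aa1*, 0.54 and 0.000397 for *Hspa4l*, 0.72 and 0.000636 for *Hspa1b*, 0.79 and 0.00101 for *Hspa1a*, and 0.25 and 0.0399 for *Hspa4*. Not called were *Hspa8* (0.18), *Hsp90ab1* (0.17), *Dnajb1* (0.14), *Hsph1* (0.45) and *Hspb1* (0.67), with edgeR adjusted p of 0.109, 0.263, 0.519, 0.171 and 0.284. The covariate was chosen in view of the same mice, so these p values are not separate support. Of the 9 follicular cell genes themselves, 1 was called lower and none higher in edgeR. At an unadjusted p under 0.05 in edgeR 3 were lower, DESeq2 called 2 lower, and none was higher by either count. The list holds *Tg*, the gene with the insertion, so the covariate may itself differ with phenotype.

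Genes of the immediate early response, which rise within minutes of stimulation or handling of a tissue, were also higher. Of 13 such genes 6 were called higher, and their summed CPM was 426, 557, 1664, 574 and 705 in affected replicates 1, 3, 4, 5 and 6 against 291 to 456 in unaffected mice. Replicate 4 had the highest sum. The part of handling in the levels of the members was not tested.

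The plot of fold changes sets these values together. Its ranges show that only *Dnajb1* changed sign under any of the alternatives, and that the call of *Hsp90aa1* held in 25 of 27 alternatives, that of *Hspa4l* in 21, that of *Hspa4* in 14 and that of *Hspa1a* in 10.

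**Figure D3:**
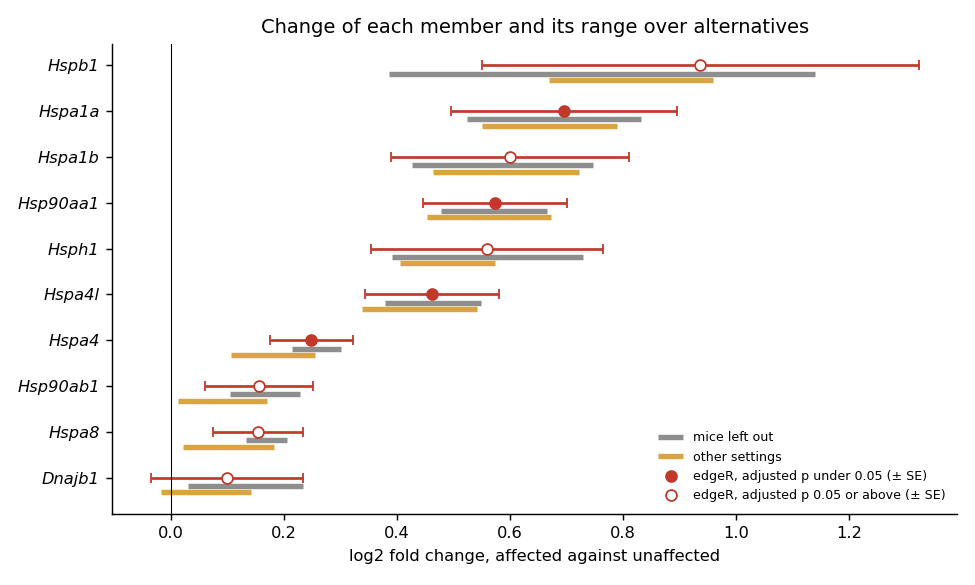
Log2 fold change of each member, affected against unaffected. Points are edgeR values with their SE, filled where the adjusted p was under 0.05; grey bars span the values with each mouse left out and yellow bars those under the other settings. Only the bar of *Dnajb1* crosses 0, at -0.02.

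Compared per length, the constitutive *Hsp90ab1* and *Hspa8* were far above the other members. In unaffected mice mean FPKM was 296 ± 18.4 for *Hsp90ab1* and 270.0 ± 21.0 for *Hspa8* (SD, n = 7). The ranges of that pair overlapped, and *Hsp90ab1* was the higher in 6 of 7 mice. *Hsp90aa1* followed at 54.8 ± 6.42 FPKM, apart from both of its neighbours. *Hspa4* (26.1 ± 2.26 FPKM) and *Hspb1* (25.5 ± 9.82 FPKM) were not separate, since *Hspa4* was the higher in 4 of 7 mice. Then came *Hspa4l* at 13.9 ± 1.42, *Hspa1b* at 11.1 ± 1.18 and *Hspa1a* at 7.46 ± 0.888 FPKM, where only the ranges of the last pair did not overlap. *Hsph1* (5.94 ± 0.742 FPKM) and *Dnajb1* (5.66 ± 0.674 FPKM) were lowest and overlapped, with *Hsph1* higher in 3 of 7 mice.

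In affected mice the order was the same but for *Hspb1* (47.6 ± 30.2 FPKM, SD, n = 5), which stood above *Hspa4* (31.1 ± 1.85 FPKM) in 4 of 5 mice with overlapping ranges. *Hspa1a* reached 11.96 ± 4.396 FPKM and *Hspa1b* 16.8 ± 6.80 FPKM, still below *Hsp90aa1* at 81.3 ± 18.4 FPKM. The share of *Hspa1b* in the FPKM of the pair was 58.0% ± 3.76 in affected and 59.9% ± 2.14 in unaffected mice, with overlapping ranges.

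**Figure D4:**
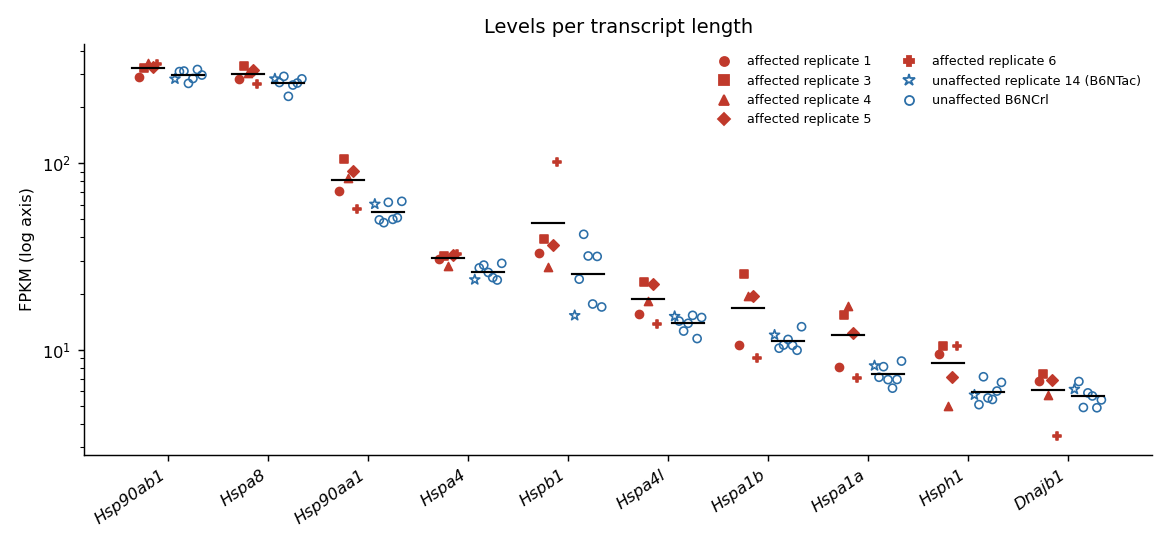
FPKM of each member on a log axis, 1 point per mouse, with black lines at group means and genes ordered by the mean in unaffected mice. *Hsp90ab1* and *Hspa8* lie near 300 FPKM in both groups, and *Hsph1* and *Dnajb1* lie lowest, near 6 FPKM in unaffected mice.

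The length of the transcript that each count and FPKM value imply together was compared as a check on isoforms. No member differed between groups (exact two-sided permutation tests, Benjamini-Hochberg over all 10118 genes with 100 or more counts in every mouse, of which 0.00% were called). At an unadjusted p under 0.05 there were 1206 genes, 1 of them a member. That member was *Hspa8*, with 2223 ± 17.1 bp (SD, n = 5) in affected mice, against 2238 ± 8.25 bp (SD, n = 7) among controls (exact permutation p = 0.0429, adjusted p = 0.393). The smallest p that 5 against 7 mice allow is 0.00126. The lengths of *Hspa1a* and *Hspa1b*, with 1 transcript model each, did not vary.

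The genes that work with these chaperones were read from 8 lists. Of 64 genes tested, 5 were called higher and none lower, with a median log2 fold change of 0.12. That count is near the share of all genes called higher (7.63%) and is not a result about the lists as a whole. The 5 were HSP70 and HSP90 cochaperones. In 4 of the 64 genes, all among these 5, all 5 affected mice were above all 7 unaffected mice. Of all genes tested 3.78% did so. The 5 were picked as called, so they are not set against the members in this.

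*Dnajb2*, a J-domain protein that directs clients to the proteasome, had 35.8, 39.5, 41.6, 44.8 and 41.3 CPM in affected replicates 1, 3, 4, 5 and 6, and 21.9 to 34.8 CPM with a median of 28.4 in controls. The change was 0.51 ± 0.10 log2 units (SE, adjusted p = 0.00618). *Bag1*, a nucleotide exchange factor that links HSP70 to the proteasome, had 58.7, 53.4, 53.8, 58.8 and 68.8 CPM in the same affected mice and 39.4 to 51.8 CPM in unaffected mice (log2 fold change 0.37 ± 0.08, SE, adjusted p = 0.0126). Both calls held in all 27 alternatives. Replicates 1 and 6 were above every control for both genes, which were picked as called, so this is not set against the members.

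*Ptges3*, the HSP90 cochaperone p23, had 102, 108, 102, 114 and 100.1 CPM in affected replicates 1, 3, 4, 5 and 6 and 80.6 to 90.2 CPM in controls. The change was 0.28 ± 0.05 log2 units (SE, adjusted p = 0.0043). *Nudc*, which also binds HSP90, had 28.3, 30.7, 29.6, 32.8 and 29.5 CPM in the same affected mice and 22.5 to 26.1 CPM in unaffected mice (log2 fold change 0.31 ± 0.06, SE, adjusted p = 0.00422). Each mouse could be left out without losing either call. Library totals without *Tg* ended both, with adjusted p of 0.275 for *Ptges3* and 0.212 for *Nudc*, and limma on log2(FPKM + 1) without a filter ended that of *Ptges3* (adjusted p = 0.0795). *Bag2*, an exchange factor that inhibits the HSP70 ubiquitin ligase, was low at 7.53 ± 1.64 CPM (SD, n = 5) against 4.78 ± 1.00 CPM (SD, n = 7), and its log2 fold change was 0.65 ± 0.17 (SE, adjusted p = 0.0274). Its groups overlapped, and its call held in 18 of 27 alternatives. Leaving out any 1 of 5 mice gave adjusted p of 0.0506 to 0.0619. Library totals without *Tg* gave 0.0656, and the limma fits gave 0.0535, 0.054 and 0.104.

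The genes of the factors that control the response were not called, and the activity of the factors was not measured. The list of 6 heat shock factors and their binding protein had none past the threshold in edgeR or DESeq2 and 2 at an unadjusted p under 0.05. *Hsf1*, the main factor of the response, had 28.4 CPM in affected and 27.3 CPM in unaffected mice (log2 fold change 0.06 ± 0.08, SE, adjusted p = 0.714). *Hsf2* had 28.2 and 29.1 CPM (log2 fold change -0.05 ± 0.13, SE, adjusted p = 0.847).

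No subunit of the cytosolic chaperonin TRiC, which folds actin and tubulin, was called among 9 tested, and none of 6 prefoldin subunits, which feed it. In both lists the count was also 0 at an unadjusted p under 0.05 and in DESeq2. The median log2 fold changes were 0.03 and 0.05. Of 6 other small heat shock proteins tested none was called by any of these 3 counts. Of 5 other cytosolic HSP70 genes none was called in edgeR or DESeq2 and 1 had an unadjusted p under 0.05.

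The same protein families have members in the ER and in mitochondria. All 6 ER counterparts were called higher, in all 27 alternatives, with log2 fold changes from 1.39 (*Dnajc3*) to 2.88 (*Hspa5*), and all 6 had no overlap between groups. *Hspa5* encodes BiP, the HSP70 of the ER, and made up 66.5% ± 7.71 (SD, n = 5) of the FPKM of *Hspa5* and *Hspa8* in affected mice, against 24.2% ± 7.03 (SD, n = 7) among controls. *Hsp90b1* encodes the ER form of HSP90, GRP94. Its share in the FPKM of *Hsp90aa1*, *Hsp90ab1* and *Hsp90b1* was 67.8% ± 8.47 (SD, n = 5) against 30.0% ± 5.34 (SD, n = 7). These shares were read after their values were seen, and the ranges of the groups did not overlap.

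Of 5 mitochondrial counterparts 4 were called higher, *Hspa9*, *Hspd1*, *Dnaja3* and *Hspe1*, with log2 fold changes from 0.46 (*Hspe1*) to 0.87 (*Hspa9*). The count was 2 without affected replicate 1, 5 or 6 or unaffected replicate 14, 21, 24, 25 or 26. Affected replicates 1 and 6 were the highest for these genes, and of all 12 mice replicate 1 had the highest adipose sum (1645 CPM) and replicate 6 the highest skeletal muscle sum (36428 CPM). *Trap1*, the mitochondrial HSP90, was not called (0.25 ± 0.10, SE, adjusted p = 0.118).

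The compartments did not share an order among affected mice. Replicates 1 and 6 were the 2 lowest for all 6 ER genes and for 5 of 10 cytosolic members, and the 2 highest for all 5 mitochondrial genes. For none of the cytosolic members were they the 2 highest. The part of the adipose and muscle markers in these orders was not tested. *Hspa9*, the mitochondrial HSP70, had 384, 253, 265, 308 and 345 CPM in affected replicates 1, 3, 4, 5 and 6, where *Hspa5* had 1095, 2318, 1744, 2176 and 942 CPM. *Hspa1a* followed the order of the ER genes in that replicates 3, 4 and 5 were high. It differed from them in replicates 1 and 6, whose *Hspa5* remained above the highest control (339 CPM).

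**Figure D5:**
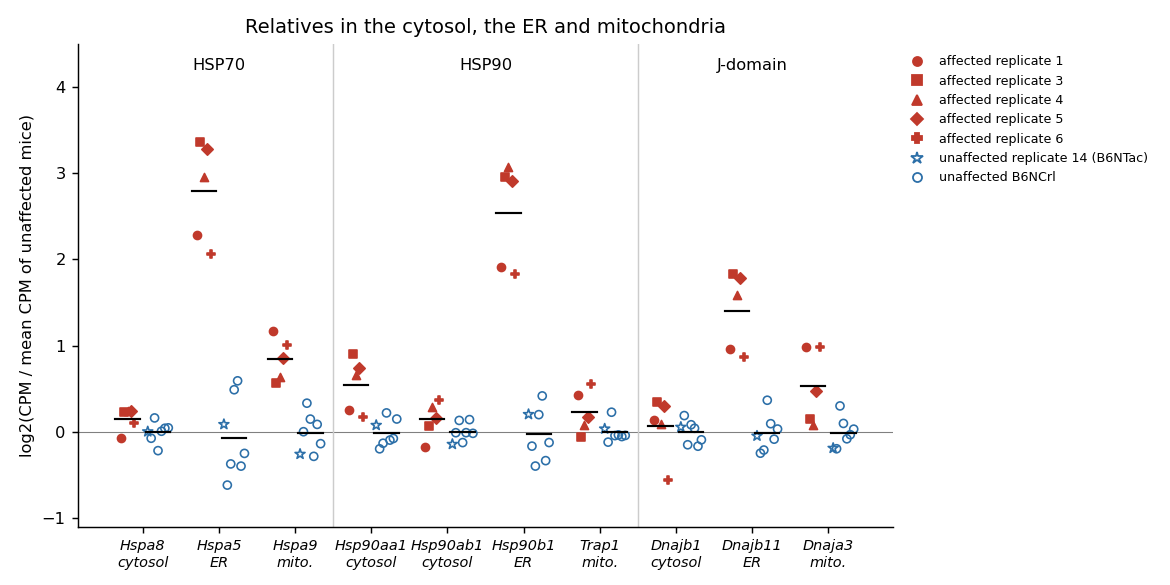
HSP70, HSP90 and J-domain relatives of the cytosol, ER and mitochondria in each mouse, as log2 of CPM over the mean CPM of unaffected mice, with black lines at the means of the plotted values. The ER genes lie above the controls in all 5 affected mice, and affected replicates 1 and 6 are lowest among affected mice for the ER genes and highest for *Hspa9*, *Trap1* and *Dnaja3*.

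The unaffected B6NTac mouse, replicate 14, was among the other controls for most members. It was the third highest of the 7 unaffected mice for *Hspa1a* (23.2 CPM), *Hspa1b* (32.1 CPM), *Hsp90aa1* (165 CPM) and *Dnajb1* (17.5 CPM), and the lowest of them for *Hspa4* (89.5 CPM), *Hsp90ab1* (660.0 CPM) and *Hspb1* (13.2 CPM). Without it, *Hsp90aa1* and *Hspa4l* kept their calls, and *Hspa1a* and *Hspa4* had adjusted p of 0.0574 and 0.0753.

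The genes with the pattern most like the mean of *Hspa1a*, *Hspa1b*, *Hsph1* and *Dnajb1* over the 12 mice, after the group means were removed from log2 CPM, were *Crip1*, *Anxa2*, *Col6a2*, *Tle1* and *Rai14* among 15513 genes. Pearson's r was 0.94, 0.92, 0.92, 0.91 and 0.91 in that order. These are descriptions, and all points share the differences in tissue between the samples. The 4 genes of that mean were not alike in this measure, with r of 0.91 between *Hspa1a* and *Hspa1b*, -0.32 between *Hspa1a* and *Hsph1*, and -0.52 between *Hsph1* and *Dnajb1*. *Hspa1b* was closest to *Hspa4l* (r = 0.95) and *Hsp90aa1* (r = 0.92).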

How the data were processed

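Thyroid RNA of 12 mice was depleted of ribosomal RNA and made into libraries with a KAPA HyperPrep kit. The authors aligned and quantified reads in OmicSoft Array Studio on the Ensembl annotation of GRCm38 and deposited a table of estimated counts per gene, not normalized, and a table of FPKM, scaled by them to transcript length and library. Whether strand was used is not given in the sources used here.

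Counts were rounded, genes with low counts were removed by filterByExpr (minimum count 10), and edgeR 4.0.16 (R 4.3.3) with TMM scaling and its robust quasi-likelihood test compared 5 affected with 7 unaffected mice, adjusting over all genes by Benjamini-Hochberg. SE is the log2 fold change over the square root of F. Library depth bounds precision for low members. P-values measure the spread between mice. Implied length is count over FPKM and library total, compared on a log2 scale. Gene coordinates and the shared 75-base windows are from GENCODE M21. Alternatives used DESeq2 1.42.0 and limma 3.58.1. The fit was tested on simulated data.

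The members and lists were chosen with earlier results of these data known. All members are named, with up to 3 called genes per pathway or counterpart list (average log2 CPM of at least 1) and the 5 genes of most similar pattern. Other genes were named after their values were seen. No column of another sample was present.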

Additional observations from a re-analysis of the deposited data

Results flagged for a closer look

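*Hspb1* in affected replicate 6, at 102 CPM, stood apart from the other 4 affected mice. Its gap to the nearest of them was 0.896 of the range of the group, past Dixon's limit for 5 values. It was the only such value in 20 groups examined (10 members in 2 groups), and chance alone marks about 1 group in 20. The same mouse had the highest skeletal muscle marker sum, 36428 CPM, and the part of muscle in this value was not tested.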

How the results depend on the processing

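No paired analysis was possible because the groups share no replicate numbers. Of 27 alternatives, 13 moved the count of members called higher, 4 in the fit reported, by more than 1.5 times. It was 0 with library totals without *Tg* and with limma on log2(FPKM + 1) without a filter. It was 2 with upper-quartile factors, without the low-count filter, with only the 6 B6NCrl controls (the same as without unaffected replicate 14), and the 2 filtered limma fits, which used a pseudocount of 1 or 0.1 on FPKM. With each mouse left out it was 1 to 5, with 1 without affected replicate 3 or 5 and 2 without unaffected replicate 14, 21, 24 or 25. DESeq2 called 5. Mitochondrial counterparts called higher, 4, fell to 2 with library totals without *Tg*, only the B6NCrl controls, and each of the 3 limma fits, and were 2 to 4 with a mouse left out. Pathway genes called higher, 5, were 2 with library totals without *Tg*, 3 with limma without a filter and 8 with the muscle covariate. Those called lower, 0, were 2 with library totals without *Tg*, 1 with DESeq2, upper-quartile factors and the follicular cell covariate, and 0 to 2 with a mouse left out (1 without affected replicate 1, 2 without affected replicate 6). *Dnajb1* turned to -0.018 with library totals without *Tg*. Relative to the median of all genes (-0.13 there), *Hspa1a* was 0.72, *Hsp90aa1* 0.59, *Hspa4l* 0.47 and *Hspa4* 0.24. Genes called higher and lower were 1500 and 1199 in the fit reported, 604 and 1709 with library totals without *Tg*, and 1149 and 1510 with upper-quartile factors. They were 2046 and 1549 with DESeq2, and 1960 and 1418 with the follicular cell covariate. The causes were not tested. The ER counterparts kept their counts in every alternative run. The count of members with a different implied length stayed at 0 in the 13 alternatives run for it. No gene at all was called for length in the fit reported (lowest adjusted p 0.137, exact permutation test), so that says little about stability. Tissue differed between mice, 1 B6NTac control cannot separate substrain from phenotype, and reads shared between members and copies limit the values of *Hspa1a*, *Hspa1b*, *Hspa8*, *Hsp90aa1* and *Hspb1*.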
